A study of Zea mays with 6 samples.

Results

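The 7 AUXIN RESPONSE FACTOR (ARF) genes described here are ARF1 (GRMZM2G169820), ARF2 (GRMZM2G153233), ARF4 (GRMZM2G034840), ARF16 (GRMZM2G028980), ARF21 (GRMZM2G390641), ARF27 (GRMZM2G160005) and ARF29 (GRMZM2G086949). They were taken from the expression table by these identifiers, and all 7 were found among its 39283 genes. The tested seedlings had their aerial portions placed for 30 min in indole-3-acetic acid (IAA, the main natural auxin) dissolved with 1% DMSO. The controls spent the same time in 1% DMSO without IAA. The sample labels give the IAA dose as 100 mM, whereas the study's methods give 100 μM. All seedlings were 7-day-old greenhouse plants of the maize inbred line B73, and each treatment had 3 replicates of 3 plants. The tissue was cut from the root and held all leaves and the shoot apex together, so cell types were not separated.

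ARFs are plant transcription factors that bind DNA through a B3-type domain and recognise the core motif TGTC in the control regions of auxin-responsive genes. When auxin is scarce, Aux/IAA proteins bind to certain ARFs through a shared PB1 domain and recruit corepressors of the TOPLESS family. Auxin joins Aux/IAA proteins to TIR1/AFB receptors, the Aux/IAA proteins are degraded, and those ARFs are set free. The study ties this pathway to clade A and states that most clade B ARFs may not bind Aux/IAA proteins. The family is divided into clades, and in reporter assays members of clade A raise and members of clade B reduce transcription. Of the 7 genes, ARF4, ARF16, ARF27 and ARF29 are counted here as clade A, and ARF4 and ARF29 form a sub-clade. The study's text treats ARF4, ARF16 and ARF29 as clade A, whereas ARF27, which that text does not name, was placed from general knowledge of the family. ARF1, ARF2 and ARF21 were not assigned to a clade here, and none of the 7 is among the clade B ARFs whose binding the study mapped.

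The measure is the FPKM value, the number of sequenced fragments of a gene scaled to the length of its transcript and to the size of the library, which allows levels to be compared between genes. The table holds 1 pooled value per gene and treatment, made over the 3 replicates. The spread between replicates is therefore unknown, no error is attached to any value below, and the treatment was not tested. A gene was counted as higher or lower when its pooled values differed by at least 1.5-fold at a mean FPKM of at least 1. These counts are read beside the share of all 22506 genes at that level that did the same, which was 4.1% for higher and 5.18% for lower after IAA. In pooled shoot tissue, a change in the number of cells that express a gene and a change in the RNA per cell cannot be told apart.

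The tissue label fitted the abundance of the green shoot markers, whereas the 2 root genes found by name differed in level. The 15 entries matched to green shoot symbols, such as Rubisco small subunit and chlorophyll-binding protein genes, had a median of 758 FPKM after IAA and 720 FPKM in DMSO, and 12 of them were above 100 FPKM in both treatments. The 3 others are further entries named PDK1 (GRMZM2G107196 and GRMZM2G097821) and Pep1 (GRMZM5G899080), which share a symbol with the abundant C4 genes pdk1 and pep1. What these 3 entries encode was not examined. They had between 2.83 and 13.2 FPKM after IAA and between 2.26 and 12.7 FPKM in DMSO. Of the 15, 3 were at least 1.5-fold higher after IAA and none was lower, beside 4.1% higher and 5.18% lower of all genes. Among genes averaging 25 FPKM or more, 2.48% were higher. Whether the 3 higher shoot genes bear on the ARF values was not tested. Only 2 root genes were matched by name, and rtcs1, a regulator of crown root initiation, was listed at 0.220 FPKM after IAA and 0.0530 FPKM in DMSO. The root hair gene rth3 was not low, with 8.70 FPKM after IAA and 11.1 FPKM in DMSO. That was above 68.0% of all genes after IAA and 72.0% in DMSO.

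Of the 7 ARF genes, 3 were at least 1.5-fold higher after 30 min of IAA and none was at least 1.5-fold lower. The 3 genes are ARF27, ARF21 and ARF2. That is 42.9% of the 7 genes, beside 4.1% of all genes averaging 1 FPKM or more. The 7 were picked with earlier results of these data known. Their share therefore cannot be read as an enrichment of ARF genes. ARF27 and ARF21 also passed a limit of 2-fold, which 0.938% of all genes did. The other 4 genes lay between a log2 ratio of -0.36 and 0.02, so the median of all 7, 0.02, falls among these 4 genes and does not describe the other 3. The median over all genes was -0.04.

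**Figure D1:**
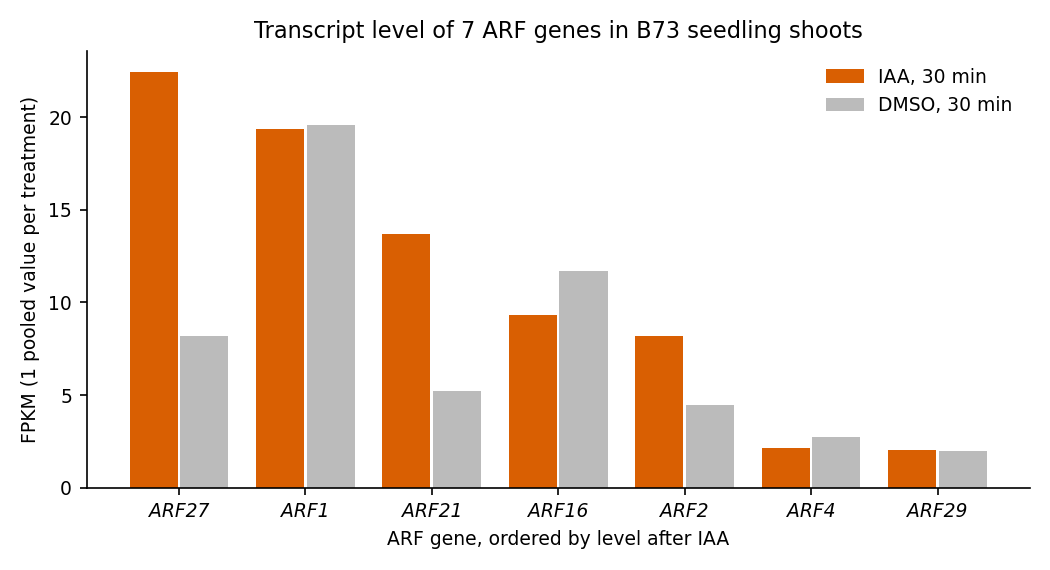
Pooled FPKM (vertical axis) of the 7 ARF genes after IAA (orange) and in DMSO (grey), ordered by the level after IAA, with no error bars because 1 value exists per treatment. ARF27, ARF21 and ARF2 have the taller orange bars, and ARF1 and ARF29 have bars of nearly equal height.

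ARF27, counted as clade A, had 22.5 FPKM after IAA and 8.21 FPKM in DMSO. This is a 2.74-fold higher level, or a log2 ratio of 1.45, and of all genes at a mean FPKM of at least 1 only 80 had a ratio as high, ARF27 included. Its locus lies on chromosome 9 from 11128329 to 11140405 of B73v3 and spans 12077 bp. It also showed the largest difference in level of the 7 genes, 14.2 FPKM.

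ARF21 had 13.7 FPKM after IAA and 5.24 FPKM in DMSO, a 2.61-fold higher level with a log2 ratio of 1.38. Only 90 genes had a ratio as high. ARF21 lies on chromosome 6 from 89284779 to 89287980 and has the shortest locus of the 7, 3202 bp. The log2 ratios of ARF27 and ARF21 differed by 0.07. Without replicate values it is not known whether that difference exceeds the spread between samples.

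ARF2 had 8.17 FPKM after IAA and 4.48 FPKM in DMSO. Its level was 1.83-fold higher, a log2 ratio of 0.87, which 335 genes reached. The gene lies on chromosome 1 from 230778452 to 230782861. ARF2 passed the 1.5-fold limit but not the 2-fold limit, and its log2 ratio was 0.58 below that of ARF27.

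ARF1, on chromosome 1 from 190580078 to 190595543, was the most abundant of the 7 genes in DMSO. It had 19.4 FPKM after IAA and 19.6 FPKM in DMSO, a log2 ratio of -0.01 that turned to 0.02 when the median of all genes was set to 0. Its ratio lay near the middle of all genes, with 53.6% of them below it.

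The other clade A genes of the list, ARF4, ARF16 and ARF29, did not pass the 1.5-fold limit in either direction. ARF29, on chromosome 10 from 146553165 to 146558259, had 2.03 FPKM after IAA and 2.01 FPKM in DMSO, a log2 ratio of 0.02. ARF4, its sub-clade relative on chromosome 2 from 3342917 to 3349175, had 2.13 FPKM after IAA and 2.74 FPKM in DMSO, 22.2% less after IAA and a log2 ratio of -0.36. ARF16, on chromosome 4 from 237016081 to 237022029, had 9.35 FPKM after IAA and 11.7 FPKM in DMSO. That was 20.1% less after IAA, a log2 ratio of -0.32. Of all genes, 13.1% had a lower ratio than ARF4 and 15.6% a lower ratio than ARF16.

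How far such ratios stand out depends on abundance, since genes of low FPKM differ more between the pooled values. Among 10173 genes with a mean FPKM from 5 to below 25, 90% had a log2 ratio between -0.50 and 0.47, and 2.99% were at least 1.5-fold higher. ARF1, ARF2, ARF16, ARF21 and ARF27 are in this range. The ratio of ARF27 was above that of 99.7% of the genes in it, ARF21 above 99.6% and ARF2 above 99.0%, whereas ARF16 was above 12.3%. ARF4 and ARF29 belong to the 6455 genes with a mean FPKM from 1 to below 5, where 90% lay between -0.79 and 0.70 and 7.31% were at least 1.5-fold higher. There the ratio of ARF4 was above that of 17.8% of genes and that of ARF29 above 54.4%. ARF1 and ARF16, which were neither higher nor lower, lay inside the range that holds 90% of genes of like abundance. ARF4 and ARF29 did too, but for them this was set in advance. The 90% range at their abundance is wider than the 1.5-fold limit, a log2 ratio of 0.58.

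**Figure D2:**
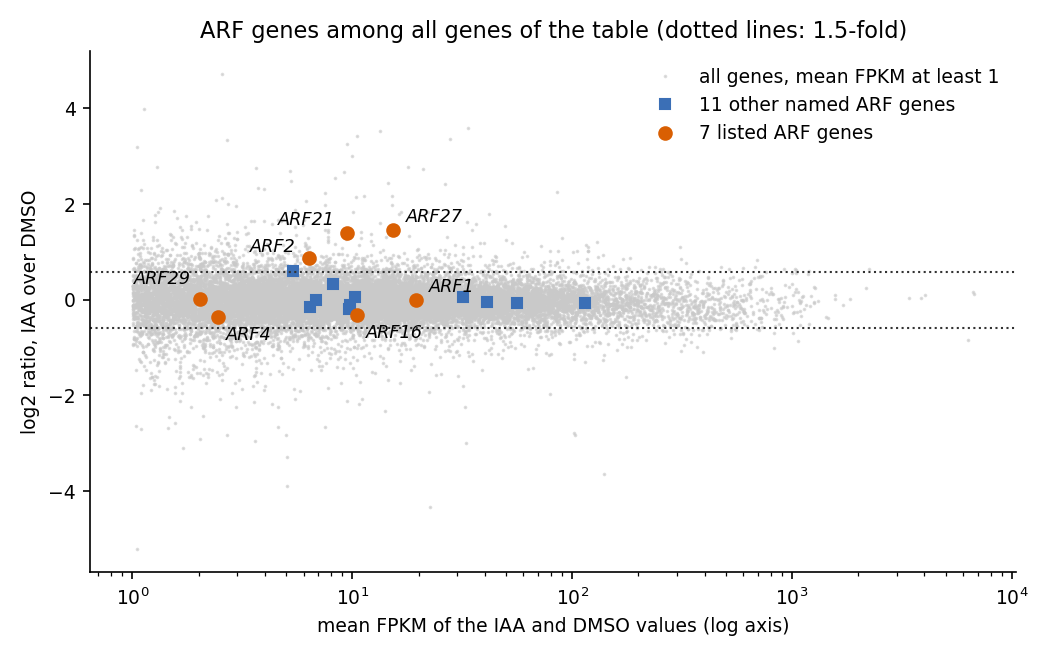
Log2 ratio of pooled FPKM, IAA over DMSO (vertical axis), against the mean FPKM of both treatments (horizontal log axis) for the 22506 genes averaging 1 FPKM or more (light grey), the 7 ARF genes (orange) and 11 other named ARF genes (blue). ARF27 and ARF21 lie well above the dotted 1.5-fold line, at log2 ratios of 1.45 and 1.38, where few genes of their abundance are found.

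The order of the 7 genes by level differed between the treatments. After IAA the order was ARF27, ARF1, ARF21, ARF16, ARF2, ARF4 and ARF29. In DMSO it was ARF1, ARF16, ARF27, ARF21, ARF2, ARF4 and ARF29. ARF27 was thus the highest of the 7 after IAA and the third in DMSO, and ARF16 was the fourth after IAA and the second in DMSO. The level of ARF27 was 2.40 times that of ARF16 after IAA and 0.702 times that of ARF16 in DMSO. Neighbours in these orders were often close. After IAA, ARF27 exceeded ARF1 by 1.16 times, ARF16 exceeded ARF2 by 1.14 times and ARF4 exceeded ARF29 by 1.05 times. In DMSO the smallest step was that between ARF21 and ARF2, 1.17 times. Whether such neighbours differ beyond their replicate spread could not be assessed.

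Summed over the 7 genes, the level was 77.2 FPKM after IAA and 53.9 FPKM in DMSO, 1.43 times as much after IAA. ARF27, ARF21 and ARF2 together had 44.3 FPKM after IAA and 17.9 FPKM in DMSO. The other 4 genes together had 32.9 FPKM after IAA and 36.0 FPKM in DMSO, so the higher sum came from the 3 genes alone. ARF27 made up 29.1% of the sum of 7 after IAA and 15.2% in DMSO. ARF1 made up 25.1% after IAA and 36.3% in DMSO.

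Genes of clade A lay on both sides of the control level. The 4 clade A genes of the list summed to 36.0 FPKM after IAA and 24.7 FPKM in DMSO, a ratio of 1.46. Without ARF27 this sum was 13.5 FPKM after IAA and 16.4 FPKM in DMSO, a ratio of 0.821, so its direction rested on a single gene. The sum also leaves out ARF18, counted as clade A but not among the 7. ARF18 alone had 112 FPKM after IAA and 118 FPKM in DMSO, more than the 4 listed genes together. The 3 genes with no clade here summed to 41.2 FPKM after IAA and 29.3 FPKM in DMSO, a ratio of 1.41. Among the named genes counted as clade A, the extremes were ARF27, at 2.74 times its DMSO value, and ARF4, at 0.778 times its DMSO value. The study mapped 7 clade A ARFs, and not all of them could be named here. With clades known for 4 of the 7 genes only, ratios were not compared between clades.

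The name table used here pairs a further 15 ARF genes with identifiers of the expression table. Whether their ratios differ from those of the 7 genes was not tested. Of the 15, 11 had a mean FPKM of at least 1, and 1 of these was at least 1.5-fold higher after IAA and none was lower. That gene, ARF17 (GRMZM2G159399), had 6.45 FPKM after IAA and 4.26 FPKM in DMSO, a log2 ratio of 0.60 that is just past the limit and was no longer past it with 1 FPKM added to both values. The share of higher genes among the 11 was 9.09%, beside 4.1% of all genes, and a single gene makes up the count. Their median log2 ratio was -0.05 and their range -0.19 to 0.60.

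The most abundant of the ARF genes that could be named are in this second list. Further ARF genes of the maize family had no name in the table used and were not analysed here, so these ranks hold among the named genes only. ARF18 (GRMZM2G035405), counted as clade A, had 112 FPKM after IAA and 118 FPKM in DMSO, a log2 ratio of -0.08. ARF10 (GRMZM2G338259), counted as clade B, had 54.8 FPKM after IAA and 57.4 FPKM in DMSO, a log2 ratio of -0.07. ARF3 (GRMZM2G078274) had 40.4 FPKM after IAA and 41.9 FPKM in DMSO, a log2 ratio of -0.05. Each of these 3 genes was above every one of the 7 genes in both treatments. An entry named arf1 (GRMZM2G395844) was higher still, with 304 FPKM after IAA and 309 FPKM in DMSO. It was left out of all ARF ranks, sums and shares because it may encode an ADP-ribosylation factor instead. ARF13 (GRMZM2G378580), the other gene counted as clade B that could be named, had 32.7 FPKM after IAA and 31.2 FPKM in DMSO. The ARF10 and ARF13 levels summed to 87.5 FPKM after IAA and 88.6 FPKM in DMSO. The study's running text does not state the clades of ARF18, ARF10 and ARF13, which, like that of ARF27, were placed from general knowledge of the family.

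Among the 22 named ARF genes, ARF27 was the fifth after IAA and the tenth in DMSO, behind ARF18, ARF10, ARF3 and ARF13 after IAA. ARF21 was the seventh of the 22 after IAA and the fourteenth in DMSO. ARF2 was the thirteenth after IAA and the fifteenth in DMSO, and ARF4 and ARF29 were the seventeenth and the eighteenth in both treatments. The 7 genes made up 20.6% of the summed FPKM of the 22 after IAA and 15.0% in DMSO. Summed over all 22, the level was 375 FPKM after IAA and 359 FPKM in DMSO, 1.05 times as much after IAA. The 4 ARF genes averaging under 1 FPKM were ARF5, ARF19, ARF31 and ARF33, and ARF33 was listed at 0 after IAA.

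**Figure D3:**
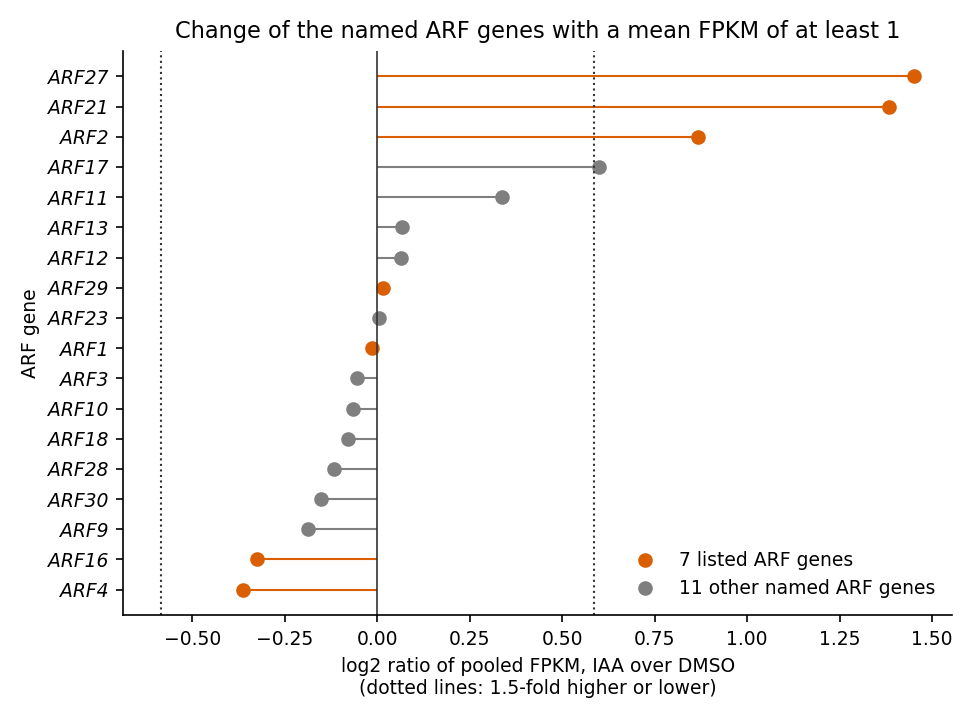
Log2 ratio of pooled FPKM, IAA over DMSO (horizontal axis), of the 18 named ARF genes averaging 1 FPKM or more, ordered by ratio, with the 7 listed genes in orange and 11 others in grey. ARF27, ARF21 and ARF2 are the highest, at 1.45, 1.38 and 0.87, ARF17 touches the dotted 1.5-fold line at 0.60, and ARF4 is the lowest at -0.36.

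The loci of ARF27, ARF21 and ARF2 were looked at for neighbours with like ratios. None of the 7 loci overlaps another gene of the table. The 3 nearest genes on each side of ARF21 began 9.56 kb away, and 5 of these 6 had a mean FPKM of at least 1, with log2 ratios between -0.27 and 0.09. Around ARF2, 4 of the 6 neighbours had a mean FPKM of at least 1, with log2 ratios between -0.19 and 0.21. Around ARF27, the 5 neighbours at that level lay between -0.76 and 0.17. The lowest, GRMZM2G127893, was lower by more than 1.5-fold, with 1.20 FPKM after IAA and 2.03 FPKM in DMSO. Over the 42 neighbours of all 7 genes, 24 had a mean FPKM of at least 1, of which 1 was higher and 1 lower. These counts lie near the shares over all genes at that level, 4.1% higher and 5.18% lower. The higher one, GRMZM2G124495, lies 17.3 kb from ARF29 and had 2.24 FPKM after IAA and 1.36 FPKM in DMSO, a log2 ratio of 0.72 beside 0.02 for ARF29. Of the neighbours of the 3 higher ARF genes that averaged 1 FPKM or more, none was at least 1.5-fold higher. So few genes cannot show whether this departs from the 4.1% share of all genes. Below an average of 1 FPKM, GRMZM2G089343 beside ARF21 had 0.232 FPKM after IAA and was listed at 0 in DMSO.

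**Figure D4:**
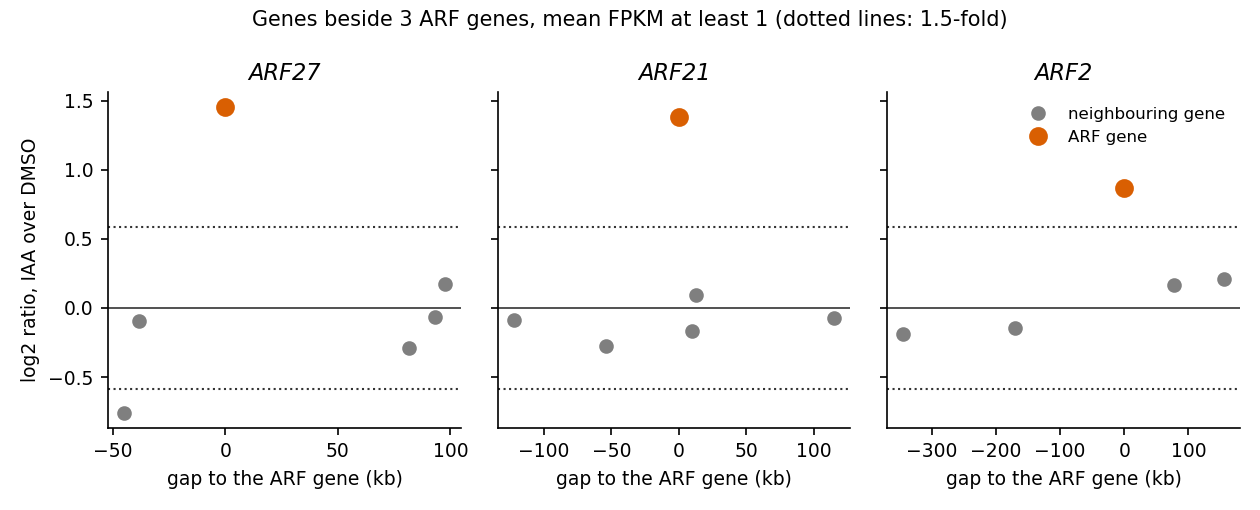
Log2 ratio of pooled FPKM, IAA over DMSO (vertical axis), of ARF27, ARF21 and ARF2 (orange) and of their nearest genes averaging 1 FPKM or more (grey), against the gap to the ARF locus in kb (horizontal axis, a separate scale in each panel). Each ARF gene stands above all its neighbours, whose highest ratio is 0.21. ARF27, ARF21 and ARF2 are the listed genes past the 1.5-fold limit, so a place above most other genes was set by that choice.

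Other parts of the auxin pathway give a scale for these ratios, although each family list held a single gene that could be named. The single Aux/IAA, GH3 and SAUR genes were each at least 1.5-fold higher, beside 4.1% of all genes, and the corepressor gene was neither higher nor lower. The lists were chosen with earlier results of these data known, and 1 gene does not stand for its family. IAA12 (GRMZM2G128421), which encodes an Aux/IAA repressor of ARFs, had 51.1 FPKM after IAA and 18.7 FPKM in DMSO. Its log2 ratio of 1.45 equalled that of ARF27 to the second decimal. GH3 (GRMZM2G378106), named for a family whose enzymes conjugate auxin to amino acids, was 10.2-fold higher, with 50.5 FPKM after IAA and 4.95 FPKM in DMSO. The auxin-responsive gene saur3 (GRMZM2G156470) was 8.07-fold higher, with 17.6 FPKM after IAA and 2.19 FPKM in DMSO. The fold of ARF27 was thus as large as that of IAA12 and smaller than those of GH3 and saur3. The corepressor gene rel2 (GRMZM2G042992), of the TOPLESS family, had 22.1 FPKM after IAA and 25.1 FPKM in DMSO, a log2 ratio of -0.18 within the limit. No TIR1/AFB receptor gene was paired with a name.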

How the data were processed

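Stranded libraries from 6 samples were sequenced. After trimming (trimmomatic), the authors aligned reads to B73v3 using TopHat2 2.1.1 and compared treatments in Cuffdiff 2.2.1 (versions from the submitters' processing notes). The deposited FPKM values are 1 per gene and treatment over 3 replicates. Replicate spread is lost, and depth is unknown: among 2178 genes of low FPKM no log2 ratio, at 3 decimals, was shared by more than 4 genes, so no steps of whole reads were seen. The methods name primary B73v3 transcripts from phytozome for most analyses. Which annotation Cuffdiff was given, and the use of strand in counting, are not given in the sources used here. The deposited fold changes, test statistics, p-values and q-values are the authors' own comparison and were not used.

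Ratios of FPKM, IAA over DMSO, were computed without a pseudocount for genes above 0 in both treatments that averaged 1 FPKM or more. FPKM totals were 785743 after IAA and 821595 in DMSO. Locus starts were raised by 1, since spans then equalled the RefSeq length for 637 genes, against 67 with starts as deposited. Names came from RefSeq synonyms (Zm-B73-REFERENCE-NAM-5.0, 18995 identifiers matched, names only). They held 5 of the 7 genes, and the names ARF27 and ARF29 were given with the list. A second entry, arf1 (GRMZM2G395844), was not counted because it may encode an ADP-ribosylation factor. Whether it does was not settled here. Named genes were the 7, other ARF genes past 1.5-fold and the 3 most abundant, and up to 3 genes of each pathway list. ARF13, ARF5, ARF19, ARF31, ARF33, rtcs1, rth3, the PDK1 and Pep1 entries and the neighbours GRMZM2G127893, GRMZM2G124495 and GRMZM2G089343 were added after their values were seen. The members and lists were chosen with earlier results of these data known. Alternatives were pseudocounts, filters, centring, rescaling and a stricter fold limit. Protein sequence features had been planned and are not analysed here. Software was pandas 2.3.3, numpy 2.4.6 and matplotlib 3.10.9 under Python 3.11.15.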

Additional observations from a re-analysis of the deposited data

How the results depend on the processing

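No paired analysis was possible because the values used here were merged over the replicates, and for the same reason leaving out replicates was not run. The 7 ARF genes kept 3 higher and 0 lower genes with 1 or 0.1 FPKM added, a mean FPKM of at least 5, no filter, centring on the median of all genes and rescaling both treatments to the same total. A 2-fold limit left 2 higher genes. The log2 ratio ranged from 1.35 to 1.52 for ARF27, 1.23 to 1.45 for ARF21 and 0.74 to 0.93 for ARF2. ARF1 turned to 0.02 with centring and 0.05 with rescaling. The median of the 7 was 0.011 with 1 FPKM added, 0.055 with centring, 0.081 with rescaling and 0.868 at a mean FPKM of at least 5, where ARF4 and ARF29 drop out. The median of the other ARF genes was -0.015 with centring, 0.011 with rescaling, 0.034 with no filter and -0.040 with arf1 counted, the last chosen after seeing the data. Their higher genes numbered 0 with 1 FPKM added, 0 at a 2-fold limit and 2 with no filter, when ARF5 joined ARF17. Over all genes, 538 were higher and 776 lower with 1 FPKM added, and 211 and 314 at a 2-fold limit, out of 22506 genes as in the main setting. The counts were 450 and 594 among genes averaging 5 FPKM or more, and 2662 and 2852 with no filter. These last 2 settings changed how many genes were counted, so their counts do not compare with the others as shares. Centring gave 1056 and 1022, and rescaling 1169 and 935, so these settings turned the balance between higher and lower genes, which was 922 to 1165. Depth is unknown, so its limit on ARF4 and ARF29 was not measured.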
